A study of Mus musculus with 4 samples.

Results

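The genes described here belong to 7 solute carrier families of amino acid transporters, namely Slc1a, Slc3a, Slc6a, Slc7a, Slc36a, Slc38a and Slc43a. Being chosen by family, they include carriers of other substrates, such as creatine (Slc6a8) and purine nucleobases (Slc43a3). They were taken from the count table by gene symbol and by the biotype protein coding, which gave 60 of the 56748 genes listed, and 1 further Slc7a gene was left out by the rule. After a filter on low counts, 49 of the 60 were tested, together with 18157 genes in all. RNA-seq was run on E14 cells, a mouse embryonic stem cell (mESC) line, in 2 libraries from wild-type cells (WT1 and WT2) and 2 libraries from Npac knockout cells (KO1 and KO2). Npac, listed as Glyr1, encodes a nuclear protein that binds nucleosomes and acts with the histone demethylase LSD2. According to the study's methods, all cells were grown without feeders on gelatin in a serum and LIF medium supplemented with nonessential amino acids, and the knockout was made with Cas9 and a guide RNA followed by puromycin selection. Each KO library came from 1 picked clone, so that clone and genotype cannot be told apart, and nothing in the labels says whether WT1 and WT2 were separate cultures. The p-values therefore measure only the spread between these libraries, which may be technical in the WT pair.

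Amino acid transporters fall into exchangers, which swap one amino acid for another, and carriers driven by sodium, protons or membrane potential, which can accumulate their substrates. The light chains of the Slc7a family reach the plasma membrane only when bound by a disulfide bridge to a glycoprotein heavy chain of the Slc3a family. Leucine and other essential amino acids that enter in this way are sensed at the lysosome by the mTORC1 pathway, whereas a shortage is sensed by the kinase GCN2 and answered through the transcription factor ATF4, for which many transporter genes are known targets. Mouse ES cells are known to depend on threonine catabolism and on methionine.

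The libraries held 15850805 to 16965120 reads assigned to genes. In what follows, a level in CPM is the read count scaled to a common library size after TMM normalization, a level in FPKM is the deposited value per length of gene, and log2 fold changes are Npac KO against WT from edgeR's quasi-likelihood test. A gene was called higher or lower when its Benjamini-Hochberg adjusted p over all genes tested was under 0.05 and its fold change was over 1.5. The targeted gene Glyr1 stood at 259 and 178 CPM in WT1 and WT2 and at 47.9 and 51.3 CPM in KO1 and KO2 (log2 fold change -2.14 ± 0.23 (SE), adjusted p = 0.00174). The ES cell genes Pou5f1, Sox2 and Nanog were read in all libraries, with 9315 to 12823 reads for Pou5f1, and none of them was called. Of 12 ES cell markers, Zfp42, Klf4 and Tfcp2l1 were lower and Klf2 was higher in Npac KO, and the summed FPKM of the 12 was 4835 and 4114 in WT1 and WT2 and 4230 and 4016 in KO1 and KO2. Of 7 trophoblast markers, Tfap2c and Krt18 were higher, with 1472 and 1858 reads over the 7 genes in WT and 4034 and 4090 in KO, and the defining marker Cdx2 had no reads in WT1 and KO1, 3 in WT2 and 16 in KO2. Of 6 neural markers, 1 was called higher and 1 lower, the latter Sox1 (log2 fold change -2.34), with 1395 and 1169 reads over the list in WT and 976 and 1231 in KO. Of 7 primitive endoderm markers, Sox7 was lower (-4.48), with 485 and 568 reads over the list in WT and 317 and 479 in KO. Of 8 fibroblast markers, Col1a1 was higher (1.29), with 20333 and 11585 reads over the list in WT and 25080 and 20590 in KO, and Col3a1 had no reads. None of 6 mesoderm markers was called by edgeR or had an unadjusted p under 0.05. Both KO libraries lay above both WT libraries in 4 (66.7%, against 33.2% of all genes tested). Reads over the list were 176 and 297 in WT1 and WT2 and 271 and 322 in KO1 and KO2, so that WT2 lay above KO1. The part of these marker changes in the results below was not tested. In RNA from a whole culture, fewer cells that express a gene and less RNA per cell cannot be told apart.

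Of the 49 transporter genes tested, 5 were called higher in Npac KO (10.2%) and 10 were called lower (20.4%). Of all genes tested, 11% were called higher and 10.7% lower, so that the share of transporters called higher was close to that of all genes and the share called lower was above it. The median log2 fold change was -0.16 over the tested transporters and 0.0015 over all genes tested. In 20 transporters both KO libraries lay below both WT libraries (40.8%, against 32.5% of all genes), in 14 they lay above (28.6%, against 33.2%), and in 15 the libraries overlapped. The genes called lower included Slc7a5, Slc3a2, Slc7a7, Slc7a1, Slc1a1, Slc6a8, Slc38a1, Slc38a7 and Slc38a9. The genes called higher were Slc7a6, Slc7a2, Slc38a8, Slc38a10 and Slc43a1. In all 15 called genes the WT and KO libraries did not overlap. The calls rest on the same libraries, so this is no separate support. By family, the counts called higher and lower were 0 and 1 of 6 tested in Slc1a, 0 and 1 of 1 in Slc3a, 0 and 2 of 15 in Slc6a, 2 and 3 of 10 in Slc7a, 0 and 0 of 4 in Slc36a, 2 and 3 of 10 in Slc38a and 1 and 0 of 3 in Slc43a. With so few genes in a family, a count of 0 is not set apart from the shares of all genes.

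**Figure D1:**
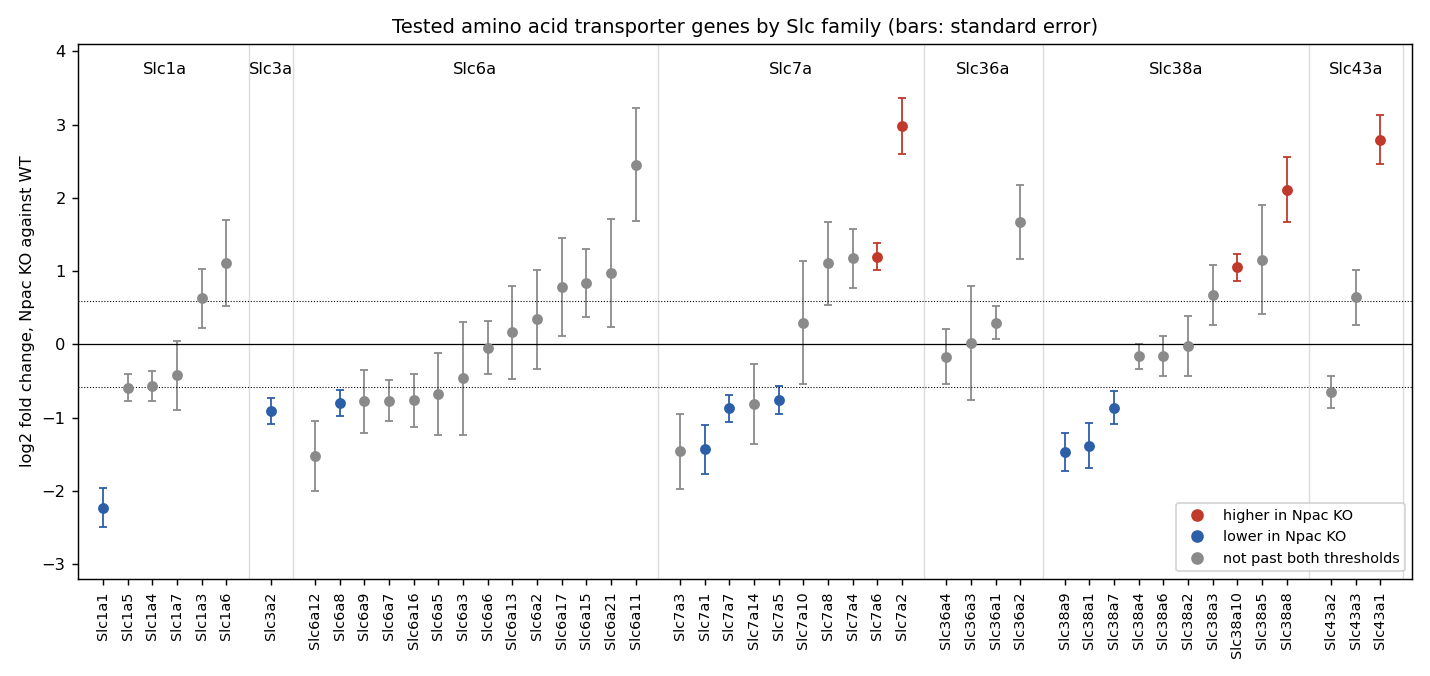
Each point is a tested transporter gene reported here, grouped by Slc family along the x axis, with its log2 fold change of Npac KO against WT on the y axis and its standard error as a bar. Colour marks genes called higher, called lower and not called, and the called genes run from -2.23 for Slc1a1 to 2.98 for Slc7a2.

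The transporter message as a whole was lower in the KO libraries. The 60 genes summed to 845 and 691 FPKM in WT1 and WT2 and to 527 and 538 FPKM in KO1 and KO2. Few genes made up most of it, since the 10 genes with the highest mean FPKM held between 78.3% and 83.5% of the sum in each library. In order of mean FPKM these were Slc7a5, Slc3a2, Slc1a5, Slc38a4, Slc6a8, Slc1a4, Slc38a2, Slc38a10, Slc7a3 and Slc6a6. Slc7a5 and Slc3a2 alone summed to 363 and 323 FPKM in WT1 and WT2 and to 184 and 201 FPKM in KO1 and KO2. The 10 genes called lower held 58.9% and 62.1% of the transporter FPKM in WT1 and WT2 and 46.3% and 48.2% in KO1 and KO2, and the 5 genes called higher held 2.61% and 3.70% in WT and 10.5% and 11.7% in KO. These shares describe the called genes and are not a separate test of them.

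**Figure D2:**
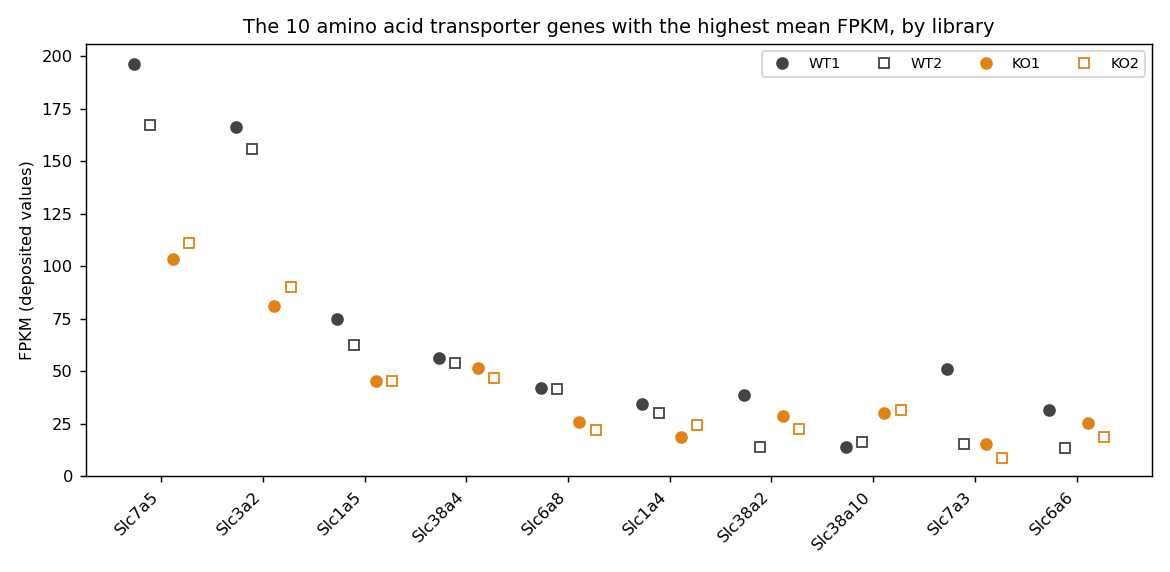
Deposited FPKM on the y axis, from 0, of the 10 transporter genes with the highest mean FPKM, with 1 marker for each of WT1, WT2, KO1 and KO2. Slc7a5 and Slc3a2 stand above the others in all 4 libraries, and for Slc38a2 and Slc6a6 the KO libraries lie between WT1 and WT2.

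The most abundant transporter pair was lower in Npac KO. Slc7a5, also named LAT1, is the light chain that exchanges intracellular glutamine for leucine and other large neutral amino acids, and Slc3a2, also named CD98 or 4F2hc, is its heavy chain. Slc7a5 (ENSMUSG00000040010, chromosome 8, 122607889-122634433 in the coordinates of the deposited table) stood at 733 and 625 CPM in WT1 and WT2 and at 385 and 419 CPM in KO1 and KO2. Slc3a2 (ENSMUSG00000010095, chromosome 19, 8684246-8700733) stood at 592 and 555 CPM in WT and at 286 and 324 CPM in KO. Both KO libraries lay below both WT libraries for each gene. Slc7a5 fell to 59.2% of its WT mean (log2 fold change -0.76 ± 0.19 (SE), adjusted p = 0.0279) and Slc3a2 to 53.2% (-0.91 ± 0.18, adjusted p = 0.0139). The ratio of Slc7a5 to Slc3a2 FPKM was 1.18 and 1.07 in WT1 and WT2 and 1.28 and 1.23 in KO1 and KO2, so the transcripts of light and heavy chain stood in similar proportion while both were lower. With KO1 or KO2 left out, adjusted p was 0.231 and 0.159 for Slc7a5 and 0.152 and 0.0882 for Slc3a2, with log2 fold changes of -0.71 and -0.82 for Slc7a5.

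Other light chains that pair with Slc3a2 moved in different directions. Slc7a7 and Slc7a6, also named y+LAT1 and y+LAT2, export cationic amino acids such as arginine in exchange for neutral amino acids and sodium. Slc7a7 (ENSMUSG00000000958, chromosome 14, 54606899-54655237) stood at 64.1 and 70.9 CPM in WT1 and WT2 and at 37.5 and 36.1 CPM in KO1 and KO2. Slc7a6 (ENSMUSG00000031904, chromosome 8, 106895489-106925338) stood at 31.0 and 32.6 CPM in WT and at 69.6 and 76.4 CPM in KO. Thus the order of these related genes changed, with Slc7a7 above Slc7a6 in both WT libraries and below it in both KO libraries. Slc7a7 fell to 54.5% of the WT mean (log2 fold change -0.88 ± 0.18, adjusted p = 0.0156) and Slc7a6 rose 2.29-fold (1.20 ± 0.18, adjusted p = 0.00594). The gene Oxa1l on the opposite strand shares 232 exon bases with Slc7a7 and had 1533 to 1659 reads in each library, and reads of the 2 genes in that stretch cannot be told apart without strand. Slc7a8, or LAT2, another neutral exchanger, was at 2.49 and 9.21 CPM in WT and at 9.78 and 15.5 CPM in KO and was not called (1.10 ± 0.57, adjusted p = 0.198). Shares were taken of the summed FPKM of the 9 light chains among the genes described here, without the Slc7a gene left out by the rule. Of this sum, Slc7a5 made up 88.1% and 84.5% in WT and 77.8% and 78.2% in KO. Slc7a6 made up 3.0% and 3.6% in WT and 11.4% and 11.6% in KO. With KO1 or KO2 left out, adjusted p for Slc7a7 was 0.144 and 0.176 (log2 fold changes -0.92 and -0.85), and with KO2 left out it was 0.065 for Slc7a6 (1.13). The log2 fold change of Slc7a8 was 0.43 without WT1 and 2.34 without WT2.

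The cationic carriers of the Slc7a family, which bring arginine and lysine into the cell without a heavy chain, divided in the same way. Slc7a1, or CAT1, the general arginine carrier (ENSMUSG00000041313, chromosome 5, 148264220-148336714), stood at 400 and 186 CPM in WT1 and WT2 and at 100.5 and 116 CPM in KO1 and KO2. It fell to 37.0% of the WT mean (log2 fold change -1.43 ± 0.34, adjusted p = 0.0227). Slc7a3, or CAT3, was at 195 and 58.6 CPM in WT1 and WT2 and at 58.1 and 34.3 CPM in KO1 and KO2 and missed the threshold (-1.46 ± 0.51, adjusted p = 0.0782). In both genes WT1 was far above WT2, and for Slc7a3 the WT2 and KO1 libraries were nearly level. Slc7a2, or CAT2, known as an inducible arginine carrier (ENSMUSG00000031596, chromosome 8, 41315433-41375345), was at 2.36 and 4.75 CPM in WT, from 36 and 83 reads, and at 23.9 and 32.6 CPM in KO, from 371 and 564 reads. It rose 7.89-fold (2.98 ± 0.39, adjusted p = 0.0034), the largest rise among the tested transporters. Even so, Slc7a2 held 9.1% and 13.9% of the cationic carriers' summed FPKM in KO1 and KO2, against 0.3% and 1.5% in WT1 and WT2. The sum, with Slc7a4 and Slc7a14 included, was 86.9 and 33.5 FPKM in WT1 and WT2 and 28.7 and 25.2 in KO1 and KO2. Thus it was lower in both KO libraries, but WT2 was near KO1. Slc7a1 and Slc7a3 held most of it. Slc7a4, which resembles these carriers but whose transport is not established, was at 3.27 and 5.67 CPM in WT and at 8.49 and 11.7 CPM in KO (1.17 ± 0.40, adjusted p = 0.071). Slc7a1 depended on the WT library used, with a log2 fold change of -0.81 without WT1 and -1.88 without WT2, and its adjusted p was 0.0699 without KO1 and 0.0611 without KO2. Slc7a3 was -0.37 without WT1, -2.08 without WT2 and -1.89 without KO1, and Slc7a4 was 0.81 without WT1 and 1.63 without WT2. Slc7a2 was called in each of these settings, between 2.54 and 3.58.

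**Figure D3:**
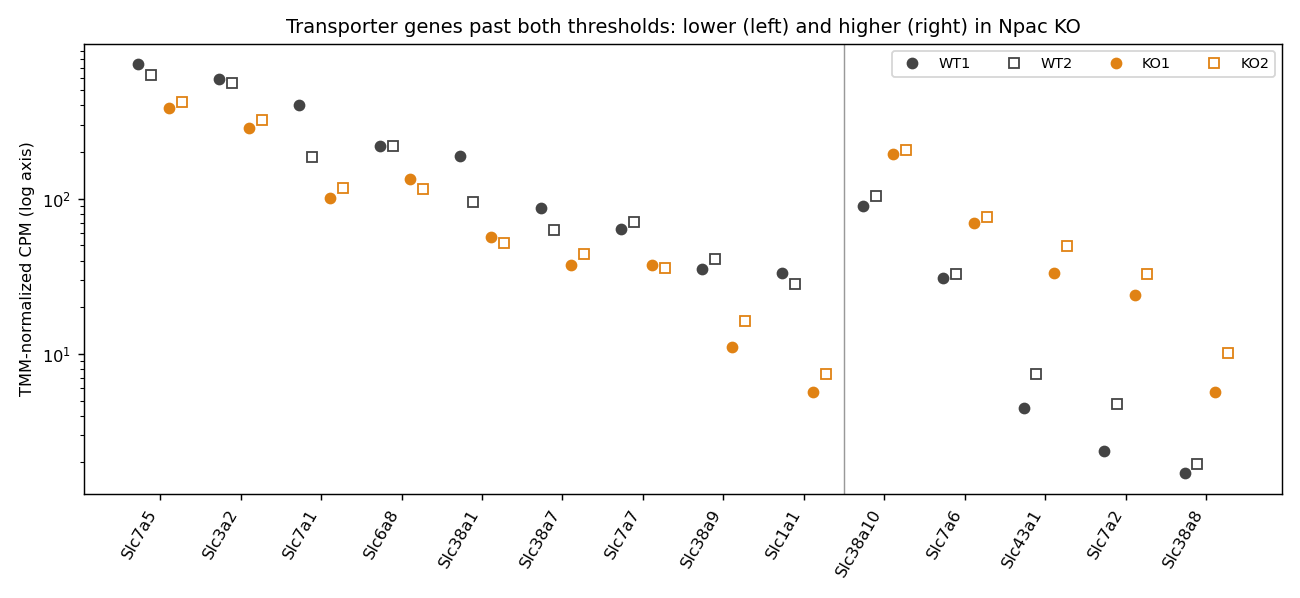
TMM-normalized CPM on a log y axis for 14 called transporter genes, with 1 marker for each of WT1, WT2, KO1 and KO2, genes lower in Npac KO on the left and genes higher on the right. WT and KO markers do not overlap for any of the genes, and WT1 stands far above WT2 for Slc7a1 and Slc38a1.

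Among the Slc1a genes, 1 of 6 tested was called, and it was lower. Slc1a1, or EAAC1, takes up glutamate, aspartate and cysteine (ENSMUSG00000024935, chromosome 19, 28812449-28891360). It stood at 33.2 and 28.3 CPM in WT1 and WT2 and at 5.66 and 7.40 CPM in KO1 and KO2, which was 21.2% of the WT mean (log2 fold change -2.23 ± 0.27, adjusted p = 0.00265). It was the largest fall among the tested transporters. An antisense gene, 4430402I18Rik, shares 31.9% of the exon bases of Slc1a1 and had 27, 10, 9 and 6 reads in WT1, WT2, KO1 and KO2. The neutral exchangers Slc1a5, or ASCT2, a major route for glutamine, and Slc1a4, or ASCT1, a carrier of serine, alanine and cysteine, were far more abundant. Slc1a5 was at 314 and 263 CPM in WT and at 190 and 193 CPM in KO (-0.59 ± 0.18, adjusted p = 0.0548), and Slc1a4 was at 136 and 119 CPM in WT and at 73.7 and 97.8 CPM in KO (-0.57 ± 0.20, adjusted p = 0.0823). Neither was called, although both KO libraries lay below both WT libraries in each. The log2 fold change of Slc1a5 was -0.49 without WT1 and -0.71 without WT2, and that of Slc1a4 was -0.50 and -0.67. Slc1a6, a glutamate carrier known from the cerebellum, was at 1.11 and 4.06 CPM in WT and at 5.92 and 5.37 CPM in KO (1.11 ± 0.58, adjusted p = 0.205). Its log2 fold change was 0.44 without WT1 and 2.33 without WT2.

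Of 15 Slc6a genes tested, 2 were called lower, Slc6a8 among them, and none was called higher, with a median log2 fold change of -0.47. The family is driven by sodium and chloride and carries neurotransmitters and osmolytes as well as amino acids. Slc6a8, the creatine carrier (ENSMUSG00000019558, chromosome X, 72716756-72726108), stood at 220 and 217 CPM in WT1 and WT2 and at 135 and 116 CPM in KO1 and KO2. The WT libraries were close to each other, and the KO libraries lay below them. Slc6a8 fell to 57.4% of the WT mean (log2 fold change -0.80 ± 0.18, adjusted p = 0.0192). The taurine carrier Slc6a6 was at 268 and 117 CPM in WT and at 214 and 159 CPM in KO, so that the KO libraries fell within the WT range (-0.05 ± 0.36, adjusted p = 0.943). Slc6a12, a betaine and GABA carrier, was at 4.78 and 3.78 CPM in WT and at 1.09 and 1.85 CPM in KO (-1.53 ± 0.48, adjusted p = 0.0558). Slc6a11, or GAT3, had 1 and 5 reads in WT and 12 and 22 reads in KO (adjusted p = 0.0564). With KO1 or KO2 left out, adjusted p for Slc6a8 was 0.114 and 0.233 (-0.93 and -0.70). Slc6a12 stood at -1.38 without WT1 and -1.69 without WT2, and Slc6a11 at 1.79 without WT1 and 3.82 without WT2.

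The sodium-coupled neutral carriers of the Slc38a family held 3 genes called lower and 2 called higher among 10 tested. Slc38a1, or SNAT1, accumulates glutamine and other small neutral amino acids at the plasma membrane (ENSMUSG00000023169, chromosome 15, 96469299-96540794). It stood at 189 and 95.2 CPM in WT1 and WT2 and at 57.0 and 51.8 CPM in KO1 and KO2, or 38.3% of the WT mean in KO (log2 fold change -1.38 ± 0.31, adjusted p = 0.0193). Its relative Slc38a2, or SNAT2, known to be induced when amino acids are short, did not follow it, at 343 and 125 CPM in WT1 and WT2 and at 256 and 204 CPM in KO1 and KO2 (-0.02 ± 0.41, adjusted p = 0.975). WT1 and WT2 enclosed both KO libraries for Slc38a2, whereas for Slc38a1 both WT libraries lay above them. Slc38a4, or SNAT4, an imprinted gene and the most abundant of the family in mean FPKM, was at 242 and 232 CPM in WT and at 220 and 203 CPM in KO and was not called (-0.17 ± 0.17, adjusted p = 0.526). The log2 fold change of Slc38a1 was -0.84 without WT1 and -1.80 without WT2, and its adjusted p was 0.0879 without KO2 (-1.32). Slc38a2 turned with the WT library used, to 0.85 without WT1 (adjusted p = 0.00243) and to -0.58 without WT2 (adjusted p = 0.0214), and Slc6a6 did likewise, to 0.65 without WT1 (adjusted p = 0.0169) and -0.53 without WT2 (adjusted p = 0.0362).

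Further members of Slc38a, lysosomal and intracellular ones among them, were changed in both directions. Slc38a9, the lysosomal arginine sensor that acts on the Rag GTPases of the mTORC1 pathway (ENSMUSG00000047789, chromosome 13, 112797285-112875283), stood at 35.2 and 40.9 CPM in WT1 and WT2 and at 11.1 and 16.3 CPM in KO1 and KO2. Slc38a7, or SNAT7, which exports glutamine from the lysosome (ENSMUSG00000036534, chromosome 8, 96562548-96580167), stood at 86.8 and 62.5 CPM in WT and at 37.7 and 44.1 CPM in KO. Both genes were lower in both KO libraries, Slc38a9 with a KO mean of 13.7 CPM (log2 fold change -1.47 ± 0.26, adjusted p = 0.00921) and Slc38a7 at 54.8% of the WT mean (-0.87 ± 0.22, adjusted p = 0.0309). Slc38a10 (ENSMUSG00000061306, chromosome 11, 119994786-120042172), described in endomembranes as a carrier of glutamine, glutamate and aspartate, was at 89.2 and 104 CPM in WT and at 194 and 207 CPM in KO. Slc38a8 (ENSMUSG00000034224, chromosome 8, 120206341-120228437), a glutamine carrier known from the eye, was at 1.70 and 1.95 CPM in WT, from 26 and 34 reads, and at 5.66 and 10.2 CPM in KO, from 88 and 176 reads. Slc38a10 rose 2.07-fold (1.05 ± 0.18, adjusted p = 0.00863) and Slc38a8 rose 4.32-fold (2.11 ± 0.45, adjusted p = 0.016). In FPKM, Slc38a10 held 9.4% and 14.3% of the family's sum in WT and 23.1% and 25.4% in KO. The family's summed FPKM was 146 and 113 in WT and 131 and 124 in KO, so the KO libraries lay between the WT libraries while single members changed. Slc38a5, another glutamine carrier, was at 0.393 and 2.69 CPM in WT and at 3.80 and 3.18 CPM in KO (1.16 ± 0.75, adjusted p = 0.297). Its log2 fold change was 0.34 without WT1 and 3.12 without WT2. With KO1 or KO2 left out, adjusted p was 0.233 and 0.136 for Slc38a7 (-0.77 and -0.98) and 0.0531 and 0.0771 for Slc38a10 (1.08 and 1.01). It was 0.0792 without KO1 for Slc38a9 (-1.24) and 0.173 without KO2 for Slc38a8 (1.63).

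The Slc43a family, whose L-type facilitators let large neutral amino acids pass without exchange, changed in its makeup. Slc43a1, or LAT3 (ENSMUSG00000027075, chromosome 2, 84669194-84693938), stood at 4.52 and 7.44 CPM in WT1 and WT2 and at 33.4 and 49.7 CPM in KO1 and KO2. It rose 6.92-fold (log2 fold change 2.79 ± 0.33, adjusted p = 0.00261), and the KO libraries lay far above the WT libraries. Slc43a2, or LAT4, was at 41.4 and 32.2 CPM in WT and at 23.5 and 23.3 CPM in KO, and Slc43a3, a carrier of purine nucleobases, was at 11.9 and 24.3 CPM in WT and at 21.9 and 34.8 CPM in KO. Neither Slc43a2 (-0.65 ± 0.22, adjusted p = 0.0691) nor Slc43a3 (0.65 ± 0.38, adjusted p = 0.248) was called. In FPKM, Slc43a1 made up 10.4% and 13.1% of the family in WT and 44.7% and 46.3% in KO, and Slc43a2 made up 54.4% and 32.2% in WT and 17.9% and 12.3% in KO. Slc43a1, Slc1a1 and Slc7a2 were called in each of the 11 alternatives tried, each library left out in turn included. None of the 4 proton-coupled Slc36a genes was called. Slc36a1, the lysosomal carrier of small amino acids and the most abundant of them, was at 34.7 and 25.2 CPM in WT and at a mean of 36.8 ± 1.07 CPM (SD, n = 2) in KO (0.29 ± 0.23, adjusted p = 0.38). Slc36a2, from 11 and 17 reads in WT and 35 and 55 reads in KO, had an adjusted p of 0.0529 (1.67 ± 0.51). Its log2 fold change was 1.45 without WT1 and 1.91 without WT2.

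The 11 genes not tested were Slc1a2, Slc3a1, Slc6a4, Slc6a14, Slc6a18, Slc6a19, Slc7a9, Slc7a12, Slc7a13, Slc7a15 and Slc38a11. Slc7a12 and Slc7a13 had no reads, which allows up to 3 reads per library by counting error alone, and 5 of the 11 had 3 reads or fewer in every library. Slc7a9, a light chain known from kidney and intestine, had 3 and 1 reads in WT and 31 and 9 reads in KO, and its heavy chain Slc3a1 had 5 and 5 reads in WT and 2 and 1 in KO. Thus the only heavy chain expressed at an appreciable level was Slc3a2.

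Transporter transcripts varied more between the WT libraries than most genes. Of 23 transporters with at least 100 reads in every library, 6 differed more than 2-fold between WT1 and WT2 (26.1%) and none between KO1 and KO2. Of all 10322 such genes, 4.12% did so between the WT libraries and 0.407% between the KO libraries. The 6 were Slc7a3 (3.33-fold), Slc38a2 (2.75-fold), Slc6a9 (2.39-fold), Slc6a6 (2.30-fold) and Slc7a1 (2.15-fold), all higher in WT1, and Slc43a3 (2.04-fold), higher in WT2. These are descriptions of 1 pair of libraries.

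Genes on chromosomes 8 and 11 stood higher as a whole in both KO libraries. Set against the mean of the WT libraries, genes of chromosome 8 had median log2 differences of 0.48 in KO1 and 0.49 in KO2, those of chromosome 11 had 0.48 and 0.45, and no other autosome had a median outside -0.19 to -0.0033. These chromosomes held 12 of the tested transporters, with 4 of the 5 genes called higher among them, namely Slc7a2, Slc7a6 and Slc38a8 on chromosome 8 and Slc38a10 on chromosome 11. Slc7a5 and Slc38a7, also on chromosome 8, were called lower all the same. The median log2 fold change was 0.32 over the 12 and -0.17 over the 37 elsewhere, where Slc43a1 alone was called higher and 8 genes were called lower. The shares of all genes called on these chromosomes and elsewhere were not counted, so the transporter counts are not set apart from them. With each chromosome's median removed, Slc7a2 stood at 2.49 (adjusted p = 0.00692), Slc38a8 at 1.63 (adjusted p = 0.041), Slc7a6 at 0.71 (adjusted p = 0.0344) and Slc38a10 at 0.59 (adjusted p = 0.0585), so that Slc38a10 lost its call. Slc7a5 then stood at -1.24 (adjusted p = 0.00674), Slc38a7 at -1.35 (adjusted p = 0.00922), and Slc1a4 on chromosome 11 at -1.03 (adjusted p = 0.0163), which gave it a call. The fold changes of marker and pathway genes in other paragraphs are given without this removal, also for genes on chromosomes 8 and 11.

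**Figure D4:**
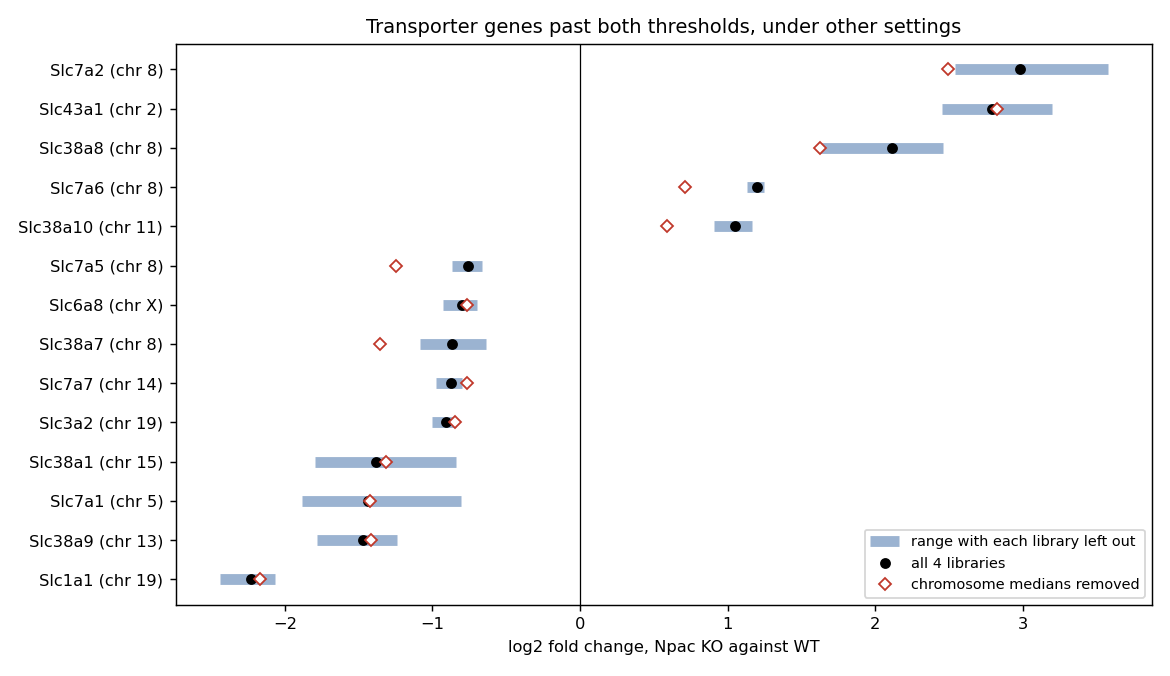
Log2 fold change of Npac KO against WT on the x axis for 14 called transporter genes, each with its chromosome. Black points are the values from all 4 libraries, bars the range with each library left out in turn, and diamonds the values with chromosome medians removed, and no bar or diamond crosses 0.

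Genes of the amino acid shortage response, described beside the transporters, were lower in Npac KO. Of 27 genes tested, 18 were called lower (66.7%, against 10.7% of all genes tested) and none higher. Both KO libraries lay below both WT libraries in 22 (81.5%, against 32.5% of all genes tested). The median log2 fold change was -1.18, and the 18 genes stood at a median of 25.1% of their WT mean. Atf4, the transcription factor of the response, was at 581 and 412 CPM in WT1 and WT2 and at 195 and 242 CPM in KO1 and KO2 (-1.18 ± 0.23, adjusted p = 0.0125). Chac1, which degrades glutathione, was at 234 and 136 CPM in WT and at 1.80 and 17.5 CPM in KO (-4.25 ± 0.82, adjusted p = 0.0121), and Cth, the enzyme that makes cysteine from cystathionine, was at 331 and 206 CPM in WT and at 31.3 and 35.6 CPM in KO (-3.00 ± 0.27, adjusted p = 0.000896). The KO libraries lay below the WT libraries for all 3 genes. Atf5 (-3.77), Trib3 (-2.91), Vldlr (-2.70), Ddit3 (-2.68), Jdp2 (-2.62), Nupr1 (-2.18) and Stc2 (-2.03) also fell. So did Ppp1r15a (-1.96), Cebpb (-1.66), Cebpg (-1.47), Shmt2 (-1.21), Ddit4 (-1.10), Pck2 (-1.07), Psph (-0.80) and Aldh18a1 (adjusted p = 0.0125). The other 9 genes were not called. Among them, Asns, the asparagine synthetase, missed the threshold (678 and 621 CPM in WT, 426 and 448 CPM in KO, -0.57 ± 0.18, adjusted p = 0.0572). Eif2ak4, which encodes GCN2, and Sesn2, Psat1, Phgdh, Mthfd2, Pycr1 and Eif4ebp1 were also among the 9. In 2 of the 27 genes both KO libraries lay above both WT libraries (7.41%, against 33.2% of all genes tested). The highest log2 fold change was 0.53. In 21 of the 27 genes WT1 was above WT2, and in 21 KO2 was above KO1.

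A search was made for the letters of the C/EBP-ATF response element, TGATGNAA on either strand, in the RefSeq promoter windows from 250 bases before to 50 bases after each gene start (GRCm38.p6). Windows were given for 42 of the 60 transporters, and 3 held the motif (7.14%), against 4.51% of all 27025 genes. The 3 were Slc7a7, called lower, Slc1a4, which missed the threshold, and Slc6a21, which had few reads. Of 17 shortage response genes called lower with a window, 6 held it (35.3%). The share was not counted for the shortage response genes not called, so a link of the motif to the fall was not tested. Among the genes with no window were Slc7a5, Slc38a1, Slc6a8 and Slc7a2. All sites found in the transporters and in these 6 genes are shown, so that they can be read side by side, with the motif in capitals, each read along its gene's strand, so that TTNCATCA is the motif on the other strand.
Slc7a7, chr14:54417927-54417956, minus strand: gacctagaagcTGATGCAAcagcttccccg
Slc7a7, chr14:54418067-54418096, minus strand: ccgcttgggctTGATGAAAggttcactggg
Slc1a4, chr11:20332699-20332728, minus strand: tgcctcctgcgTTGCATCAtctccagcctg
Slc6a21, chr7:45282834-45282863, plus strand: agaggtgagaaTTACATCAagtgggcctcc
Chac1, chr2:119351038-119351067, plus strand: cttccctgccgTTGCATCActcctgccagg
Nupr1, chr7:126625562-126625591, minus strand: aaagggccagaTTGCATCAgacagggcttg
Trib3, chr2:152344028-152344057, minus strand: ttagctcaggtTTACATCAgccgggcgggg
Jdp2, chr12:85599372-85599401, plus strand: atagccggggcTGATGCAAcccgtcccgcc
Pck2, chr14:55540152-55540181, plus strand: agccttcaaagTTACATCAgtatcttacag
Vldlr, chr19:27216809-27216838, plus strand: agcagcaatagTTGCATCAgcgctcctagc
Slc1a4, Chac1, Nupr1 and Vldlr carry the same motif letters, TTGCATCA, which are the other strand of the TGATGCAA in Slc7a7 and Jdp2, and Slc6a21, Trib3 and Pck2 carry TTACATCA. A match of these letters does not show binding, and a window without them says nothing about the factor or about sites elsewhere in the gene.

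Genes that sense amino acids for mTORC1 did not move one way. Of 39 tested, 5 were called higher (12.8%) and 3 lower (7.69%), close to the 11% and 10.7% of all genes tested, with a median log2 fold change of 0.05. Castor1, a cytosolic arginine sensor, was at 20.4 and 25.1 CPM in WT1 and WT2 and at 80.9 and 81.4 CPM in KO1 and KO2 (1.83 ± 0.20, adjusted p = 0.00186). Thus Castor1 was higher and the lysosomal arginine sensor Slc38a9 was lower in the same libraries. The shifts of chromosomes 8 and 11 were not removed for any gene of this list, nor from its counts. The leucine sensor Sesn1 (1.00, adjusted p = 0.0231), the GATOR2 subunits Mios (0.97, adjusted p = 0.0183) and Wdr59 (0.69, adjusted p = 0.043) and the Rag GTPase Rragd (1.24, adjusted p = 0.0397) were higher. Rraga, which encodes the RagA partner in the same heterodimers, was at 138 and 119 CPM in WT and at 64.5 and 57.2 CPM in KO (-1.08 ± 0.19, adjusted p = 0.00852). Lars, the leucyl-tRNA synthetase (-0.90, adjusted p = 0.022), and Rheb, the GTPase that activates mTORC1 (-0.72, adjusted p = 0.0253), were lower.

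Carriers of amino acids outside the 7 families, among them mitochondrial and peptide carriers, held 2 genes called higher and 4 called lower among 20 tested (10% and 20%, against 11% and 10.7% of all genes tested), with a median log2 fold change of -0.12. The mitochondrial ornithine carrier Slc25a15 (0.78, adjusted p = 0.0256) and the lysosomal peptide carrier Slc15a3, from 3 and 6 reads in WT and 25 and 20 in KO (adjusted p = 0.0368), were higher. Slc25a15 lies on chromosome 8, whose genes had median log2 differences of 0.48 in KO1 and 0.49 in KO2. The shifts of chromosomes 8 and 11 were not removed here, for Slc25a15 or for any other carrier or enzyme below or above. The chromosomes of those other genes are not given, and the counts called carry the same limit. The peptide carrier Slc15a2 (-1.73, adjusted p = 0.0167), the mitochondrial glycine carrier Slc25a38 (-0.95, adjusted p = 0.0207), the branched-chain amino acid carrier Slc25a44 (-0.85, adjusted p = 0.0417) and the serine carrier Sfxn3 (-0.95, adjusted p = 0.0213) were lower. Among 25 tested enzymes that use amino acids, 5 were called higher and 3 lower (20% and 12%, against the same shares of all genes), with a median of 0.23. Tdh, the threonine dehydrogenase on which mouse ES cells are known to rely, was at 111 and 70.7 CPM in WT and at 347 and 215 CPM in KO (1.63 ± 0.30, adjusted p = 0.0106). Ahcy, which clears S-adenosylhomocysteine, was at 77.9 and 80.5 CPM in WT and at 472 and 409 CPM in KO (2.48 ± 0.19, adjusted p = 0.000526). Both were higher in both KO libraries, as were Mat2b (1.23, adjusted p = 0.00602), Got2 (1.18, adjusted p = 0.00583) and Gcsh of the glycine cleavage system (1.78, adjusted p = 0.00487). Amt, another part of that system (-1.31, adjusted p = 0.00659), the proline oxidase Prodh (-0.85, adjusted p = 0.0367) and the glutamine synthetase Glul (-0.64, adjusted p = 0.0394) were lower.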

How the data were processed

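The 4 RNA-seq libraries were 2 of WT cells and 2 of Npac KO clones. The authors deposited raw read counts per gene and FPKM values, which equal those counts per gene length and scaled library size. The submitters' processing notes name HISAT2 2.0.5, featureCounts 1.5.0-p3 and CASAVA, and strand use is not given in the sources used here, so reads of overlapping antisense genes cannot be told apart. The notes name mm10, but the coordinates in the table differ from GRCm38, so they are given as deposited and their build is unsettled. Total counts were 15850805 to 16965120 per library. Floors of 3 reads cover counting error only.

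Counts were fitted in R 4.3.3 with edgeR 4.0.16 (TMM, filterByExpr, quasi-likelihood test, Benjamini-Hochberg over 18157 genes). Calls needed an adjusted p under 0.05 and a fold over 1.5. FPKM served to compare levels between genes and for sums and shares over genes, and no test used it. Named were the called members, the 10 highest by mean FPKM, uncalled members with a log2 fold change over 1 in size, and called genes of the pathway lists. Other genes named (Slc36a1, Slc43a2, Slc43a3, Slc6a9, Slc6a21, Asns and other uncalled shortage response genes, those not tested) were added after their values were seen. The members and lists were chosen with earlier results of these data known. Alternatives were DESeq2 1.42.0, other scalings (RLE, upper quartile), other filters, a replicate block, chromosome medians removed and each library left out. On simulated counts of 17922 genes for this comparison, 29.6% of genes changed 2-fold and 74.5% of those changed 4-fold were called. Only 98 and 94 tested genes were changed 2-fold and 4-fold, against 3945 of 18157 called in the real libraries. The adjusted p was therefore stricter in the simulation. Of the called transporters and the called markers, 1 each is counted in the totals but is not reported here by name or in the figures.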

Additional observations from a re-analysis of the deposited data

How the results depend on the processing

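With 5 transporters called higher and 10 lower, the counts were 6 and 11 with DESeq2, 5 and 10 with RLE or upper-quartile factors or without the fold threshold, 6 and 11 with at least 10 reads in every library, and 4 and 12 with chromosome medians removed. Over all genes tested, these settings called 9.92% to 11.4% in each direction, but 9.34% higher and 9.78% lower with chromosome medians removed. Without a filter on low counts, the counts of transporters were 10 and 12, beside 8.76% and 8.56% of all genes fitted. With each library left out in turn they ranged from 2 to 14 higher and from 3 to 16 lower, where the single remaining library of a group is assumed to vary like the other group. By library they were 9 and 12 without WT1, 14 and 16 without WT2, 4 and 3 without KO1 and 2 and 3 without KO2. Over all genes tested, 19.1% were called higher and 18.2% lower without WT2, against 3.54% and 3.34% without KO1 and 3.70% and 3.75% without KO2, so the calls of all genes moved in the same way. The shortage response genes called lower ranged from 12 to 21 of 27 over these settings, with 12 without KO1.

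The labels number the libraries 1 and 2 in both groups but name no shared culture or batch. The deviations of libraries with the same number correlated at 0.345 over genes, from 2 pairs. With the replicate number as a block, 12 transporters were called higher and 15 lower, beside 17.2% and 16.5% of all genes tested, and 20 shortage response genes were lower.

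Of the values of single transporters, 246 kept direction and side of the thresholds, 30 passed them, 20 no longer did and 10 changed sign. Those that changed sign were of Slc38a2 and Slc6a6. Slc38a2 stood at 0.028 with upper-quartile factors, 0.14 with the block, 0.045 with chromosome medians removed, 0.13 without KO2 and from -0.58 to 0.85 over the libraries left out. Slc6a6 stood at 0.0020, 0.058, 0.070 and 0.15 under the same settings and from -0.53 to 0.65 over the libraries left out. The cause was not tested. Adjusted p of Slc7a3 was 1.21e-08 without the filter and 0.000513 with the block, against 0.0782. In the simulated counts most 2-fold changes were missed, but few genes were changed there, so that share does not carry over. With 2 libraries a group, a transporter not called may still differ.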
